A study of Mus musculus with 18 samples.

Results

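Interscapular brown adipose tissue (iBAT) and inguinal white adipose tissue (iWAT) came from the same 6 mice, and their polyadenylated RNA was sequenced as part of a search for genes that respond to the loss of the long noncoding RNA Gm15551. The 12 libraries compared here are those whose titles name either tissue, 6 of iBAT and 6 of iWAT, out of 18 libraries in all. Mouse identifiers in the labels tie the iBAT library to the iWAT library of each animal, so that the tissues were compared within mice. All animals were 12 weeks old, carried the strain label C57BL/6N-ΔGm15551 and were fed a chow diet. Of the 6 mice, 3 were wild type litter mates (wt) and 3 were knockouts (ko), in which CRISPR/Cas9 had removed a segment with exon 1 of Gm15551, and the deletion is present in every cell type of the animal. Which animals shared a litter is not stated. Frozen pieces of tissue were lysed whole, so a library mixes adipocytes with vessels, nerves, immune cells and neighbouring tissue, and fewer cells of a type cannot be told apart from less RNA per cell.

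Brown adipocytes are heat-producing cells. Their marker is uncoupling protein 1 (Ucp1), a carrier of the inner mitochondrial membrane that lets respiration run fast whatever the demand for ATP, and they draw on fatty acids and glucose as fuel. Noradrenaline from sympathetic nerves switches this on through adrenergic receptors and cAMP. White adipocytes store triglyceride in a large droplet, release fatty acids on demand and secrete hormones such as leptin. The inguinal depot lies under the skin of the groin, surrounds a lymph node and can form Ucp1-positive beige adipocytes.

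Total counts were 19968075 to 24828001 in the iBAT libraries and 18385784 to 27410053 in the iWAT libraries. The mitochondrial genome gave 22.9% to 27.0% of the counts in iBAT and 3.99% to 9.64% in iWAT. Levels are given in CPM, counts scaled to a common library total after correction by the trimmed mean of M values (TMM), with factors of 0.688 to 0.829 in iBAT and 1.18 to 1.60 in iWAT. CPM is not corrected for gene length, so levels are compared between libraries and not between genes. Up to 3 counts are allowed by a count of 0, which corresponded to 0.0874 to 0.211 CPM, and this limit covers counting error only. Gm15551 reached 2.32 to 3.78 CPM in wild type iBAT and 1.76 to 9.21 CPM in wild type iWAT, and at most 0.0385 CPM in any knockout library, as the genotype labels state.

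The iWAT libraries were not alike. In iWAT wt replicate 3 and ko replicate 2 all 22 tested genes of a list of 24 lymph node and lymphocyte genes lay above every other iWAT library, with summed levels of 2761 and 1127 CPM against 87.5 to 182 CPM in the other 4. The iBAT libraries held 14.0 to 33.5 CPM of these genes. In iWAT ko replicate 1, 16 of 17 tested skeletal muscle genes lay above every other iWAT library, and the list summed to 5042 CPM against 24.4 to 58.2 CPM in the other iWAT libraries and 62.8 to 87.3 CPM in iBAT. Genes of adipocyte identity summed to 10630 and 16150 CPM in wt replicate 3 and ko replicate 2, compared with 28590 to 32310 CPM in the other iWAT libraries and 23630 to 26970 CPM in iBAT. Comparisons are therefore also given without these 3 iWAT libraries. The smaller fit rests on the mice wt 1, wt 2 and ko 3, because an iBAT library whose partner is left out adds nothing to a difference taken within mice.

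**Figure D1:**
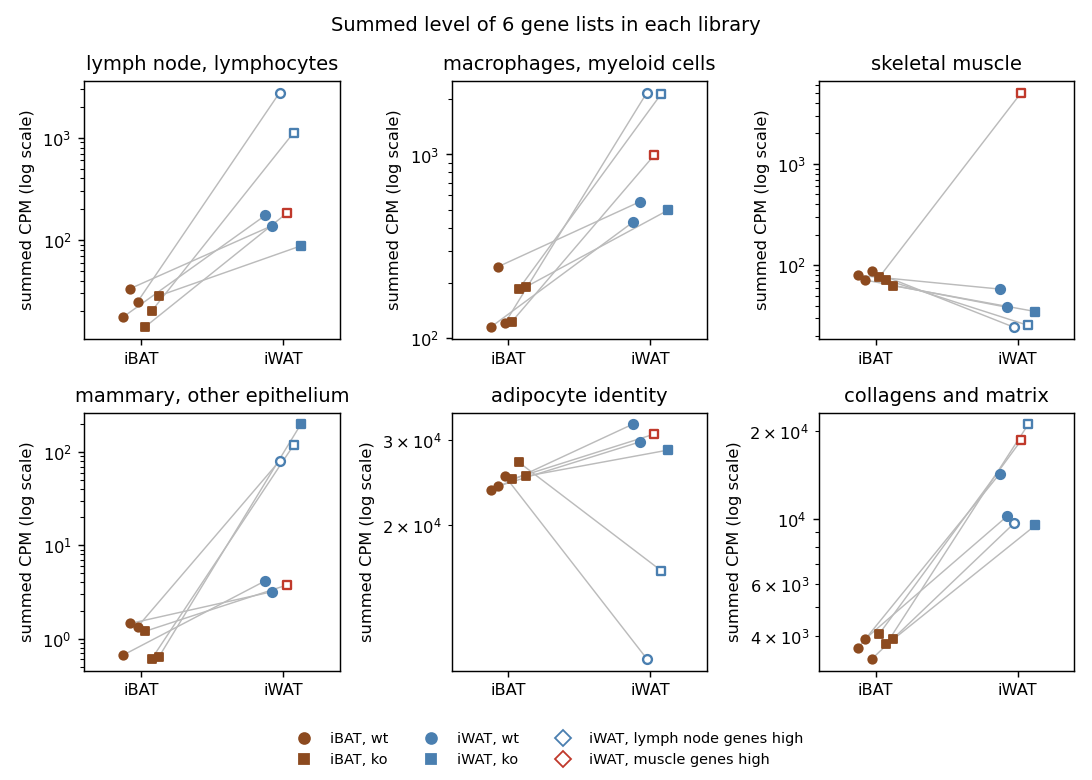
Summed CPM (log scale) of 6 gene lists in the 6 iBAT and 6 iWAT libraries, with grey lines joining libraries of the same mouse, circles for wild type and squares for knockout, and open symbols for the iWAT libraries in which lymph node genes (blue outline) or muscle genes (red outline) were high. Lymph node genes reach 2761 and 1127 CPM and muscle genes 5042 CPM in single iWAT libraries, epithelial genes are high in 3 iWAT libraries, and all 6 iWAT libraries lie above all iBAT libraries for collagens and matrix.

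Of 17794 genes tested, 4676 were higher in iBAT (26.3% of those tested) and 5465 lower (30.7%) at an edgeR adjusted p under 0.05, with a median log2 difference of -0.11 (iBAT minus iWAT) over all genes tested. These shares are the level against which the gene lists below are read. In 3285 genes (18.5%) all 6 iBAT libraries lay above all 6 iWAT libraries, and in 3136 (17.6%) all lay below. When the 3 iWAT libraries were left out, 4131 genes were higher (23.2%) and 4209 lower (23.7%), and the median was -0.08. Of the 184 genes that were over 10-fold higher in iBAT, all 184 still passed without the 3 libraries. The 636 genes that were over 10-fold lower depended more on these libraries, since 504 of them still passed and 294 stayed over 10-fold lower. Of 14618 protein-coding genes 28.5% were higher and 33.1% lower, and of 1791 long noncoding RNA genes 18.6% and 20.1%, a difference that was not tested.

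Ucp1 and Cidea served as the check of the tissue labels. Ucp1, the uncoupling protein itself, ranged from 3064 to 7168 CPM in iBAT with a median of 4936 CPM. Its iWAT libraries held 2.42, 49.6 and 0.0894 CPM in wt replicates 1 to 3 and 2.88, 14.9 and 16.7 CPM in ko replicates 1 to 3, so that the lowest iBAT library stood far above the highest iWAT library and the iWAT libraries differed widely among themselves. The log2 difference was 9.59 ± 1.22 (SE, edgeR adjusted p = 0.000335) and 8.20 without the 3 iWAT libraries. Cidea, a lipid droplet protein of brown adipocytes, had 2008 to 2766 CPM (median 2130) in iBAT and 9.33 to 137 CPM (median 48.2) in iWAT, with no overlap and a log2 difference of 5.51 ± 0.55 (SE), and 4.63 without the 3.

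Me3, Acsl5, Alcam and Psat1 were picked for their small p-values in an earlier analysis of these libraries, and their values are given as a description. Me3, the mitochondrial NADP-dependent malic enzyme, had 61.7 to 76.9 CPM (median 70.2) in iBAT and 1.37 to 2.60 CPM (median 1.74) in iWAT. Acsl5, which activates long-chain fatty acids with coenzyme A, had 496 to 753 CPM (median 677) and 43.4 to 61.7 CPM (median 54.6). Alcam, a cell adhesion molecule, had 1.61 to 2.03 CPM (median 1.82) in iBAT and 22.9 to 49.8 CPM (median 30.6) in iWAT, and Psat1, an enzyme of serine synthesis, 4.32 to 8.01 CPM (median 4.75) and 51.6 to 89.8 CPM (median 72.1). In each of these genes the tissues did not overlap, and the log2 differences of 5.26, 3.57, -4.15 and -3.77 moved by at most 0.18 without the 3 iWAT libraries. Leptin (Lep), the satiety hormone of white adipocytes, was lower in iBAT (19.6 to 77.2 CPM, median 29.8) than in iWAT (66.3 to 448 CPM, median 279.6) with a log2 difference of -2.72 ± 0.39 (SE). The ranges overlapped through the lymph node library wt replicate 3, which held the lowest iWAT value, 66.3 CPM.

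**Figure D2:**
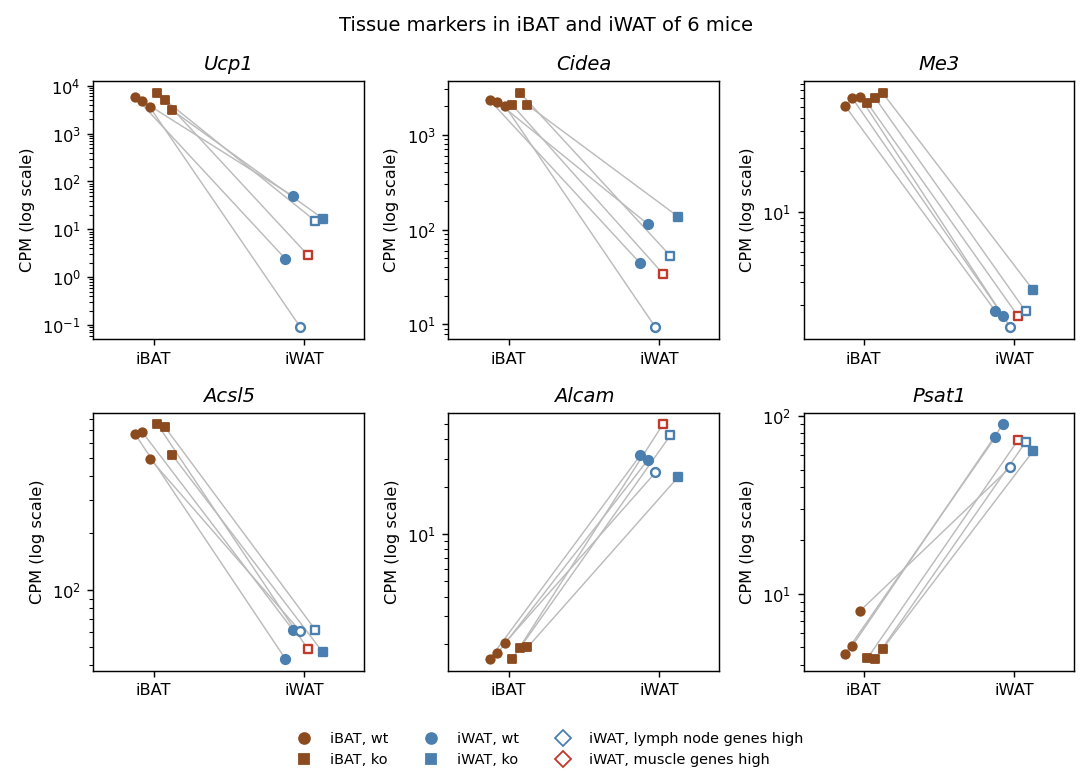
CPM (log scale) of 6 marker genes in each library, with grey lines joining the iBAT and iWAT libraries of the same mouse, circles for wild type, squares for knockout and open symbols for the 3 iWAT libraries with lymph node (blue outline) or muscle (red outline) genes. Ucp1, Cidea, Me3 and Acsl5 lie higher in iBAT and Alcam and Psat1 higher in iWAT in all 6 mice, and Ucp1 spreads from 0.0894 to 49.6 CPM in iWAT.

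The thermogenic genes of brown fat were mostly higher in iBAT. Of 21 regulators and effectors, 18 were higher and 1 lower, with a median log2 difference of 4.02. All 6 iBAT libraries lay above all iWAT libraries in 16 of them. With the 3 iWAT libraries left out 19 were higher and 0 lower, and the median was 3.50. The list summed to 8738 to 14530 CPM in iBAT and to 239 to 693 CPM in iWAT, so that the medians of the sums differed 24.9-fold.

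Among the effectors, Elovl3, a fatty acid elongase of brown fat, had 31.8 to 234 CPM (median 109) in iBAT and 0.119 to 3.31 CPM (median 0.805) in iWAT, a log2 difference of 6.69 ± 0.76 (SE). Cox7a1, a subunit isoform of cytochrome c oxidase, differed by 6.62 ± 0.50, and by 5.97 without the 3 iWAT libraries (370 to 525 CPM against 0.656 to 9.14 CPM). Letmd1, a mitochondrial protein needed for thermogenesis, differed by 4.02 ± 0.16 (628 to 1094 CPM against 38.0 to 65.1 CPM). None of these ranges overlapped. Some further members were picked after their values were seen. Dio2, the deiodinase that makes active thyroid hormone, had 41.7 to 370 CPM (median 161) in iBAT and 0.537 to 6.66 CPM (median 1.73) in iWAT, a log2 difference of 6.00 ± 0.52.

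Also picked after its values were seen, Ppargc1a, the cold-induced coactivator of mitochondrial genes, had 28.9 to 244 CPM (median 46.0) in iBAT and 3.97 to 15.4 CPM (median 7.06) in iWAT, with the highest iBAT values of 123 and 244 CPM in the replicate 1 mice of both genotypes (2.98 ± 0.57). Prdm16, a determinant of brown adipocyte fate picked in the same way, had 18.8 to 42.5 CPM in iBAT and 5.07 to 25.0 CPM in iWAT (1.04 ± 0.24), and its ranges overlapped. Among the regulators named by the rule, Ppargc1b, a relative of Ppargc1a, had 55.6 to 119 CPM in iBAT and 4.14 to 9.20 CPM in iWAT (log2 difference 3.76 ± 0.24, SE). The nuclear receptor Esrra, which binds promoters of oxidative genes, had 214 to 322 CPM and 43.0 to 73.0 CPM (2.23 ± 0.11), and the ranges of both genes did not overlap. Zfp516, a zinc finger activator of Ucp1, was the list member that was lower in iBAT (-0.47, edgeR adjusted p = 0.0374), and it did not pass without the 3 iWAT libraries (-0.28, adjusted p = 0.0955). Ehmt1, a methyltransferase that partners Prdm16, had 40.3 to 48.7 CPM in iBAT and 37.5 to 45.8 CPM in iWAT (0.03, adjusted p = 0.714). Irf4, a transcription factor induced by cold, had a log2 difference of 0.66 (adjusted p = 0.0715) with all libraries and 1.11 (0.00291) without the 3, and its iWAT values of 23.2 to 28.6 CPM in those 3 libraries stood above the 8.16 to 15.9 CPM of the others.

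Promoters are shown for Ucp1, the gene by which brown fat is defined, and for Dio2, whose window holds a cAMP response element (TGACGTCA, which is its own reverse complement), the site of the factors that act below cAMP. The stretches are the 250 bases before the start of each gene in RefSeq (GRCm38.p6), read 5′ to 3′ on the strand of the gene, at chr8:83290098-83290347 (plus strand) for Ucp1 and chr12:90739039-90739288 (minus strand) for Dio2, and capitals mark the element, whose first base lies at -95 from the start of Dio2.

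Ucp1: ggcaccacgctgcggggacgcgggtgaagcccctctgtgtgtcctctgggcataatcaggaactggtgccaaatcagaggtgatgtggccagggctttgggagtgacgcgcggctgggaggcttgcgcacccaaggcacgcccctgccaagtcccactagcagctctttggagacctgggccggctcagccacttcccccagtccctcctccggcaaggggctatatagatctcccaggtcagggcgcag
Dio2: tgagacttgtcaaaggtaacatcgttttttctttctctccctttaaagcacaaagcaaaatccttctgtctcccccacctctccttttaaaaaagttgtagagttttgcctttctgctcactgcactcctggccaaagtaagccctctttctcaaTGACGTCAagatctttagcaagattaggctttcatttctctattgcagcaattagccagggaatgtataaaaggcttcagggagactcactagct

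Over the window from 250 bases before to 50 bases after the start, the Ucp1 window held none of the motifs searched, which says only that these letters are not in it. The element stood in 2.03% of the 27025 windows of all genes, in 3.64% of the 3548 matched genes higher in iBAT, 1.95% of the 3903 lower ones and 3.90% of the 4868 that did not pass. The share among the higher genes was thus below that among genes that did not pass.

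Genes of the adrenergic cascade and of thyroid hormone action moved in both directions. Of 23 genes, 14 were higher and 4 lower, with a median of 0.69 (13 and 4 without the 3 iWAT libraries, median 0.52). Adrb3, the main β-adrenergic receptor of mouse adipocytes, had 288 to 483 CPM in iBAT and 270 to 702 CPM in iWAT (-0.30, edgeR adjusted p = 0.391), and was lower in iBAT without the 3 iWAT libraries (-0.95, adjusted p = 0.000735). The lymph node libraries held its lowest iWAT values, 270 and 320 CPM. Adra2a, an inhibitory receptor, had 0.0577 to 0.281 CPM in iBAT and 1.90 to 6.20 CPM in iWAT, with a log2 difference of -4.49 ± 0.48 (SE).

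Downstream of the receptors, Gnas, the stimulatory G protein, had 2838 to 3905 CPM in iBAT and 416 to 744 CPM in iWAT (2.44 ± 0.17), whereas the inhibitory Gnai1 was lower (33.5 to 60.7 CPM against 73.9 to 197 CPM, -1.56 ± 0.23). Adenylyl cyclases, which make cAMP, split by isoform. Adcy3 had 128 to 350 CPM in iBAT and 21.6 to 39.6 CPM in iWAT (2.68 ± 0.18), while Adcy5 had 6.33 to 40.3 CPM and 84.0 to 205 CPM (-3.21 ± 0.50). Pde4d, which breaks cAMP down, had 58.6 to 125 CPM in iBAT and 4.92 to 10.6 CPM in iWAT (3.34 ± 0.11). The ranges of these 5 genes did not overlap. Prkacb, a catalytic subunit of protein kinase A, did not pass with all libraries (0.22, adjusted p = 0.113) and was higher without the 3 (0.42, adjusted p = 0.0126). Pde3b, the insulin-activated phosphodiesterase, did not pass (0.25, adjusted p = 0.280).

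**Figure D3:**
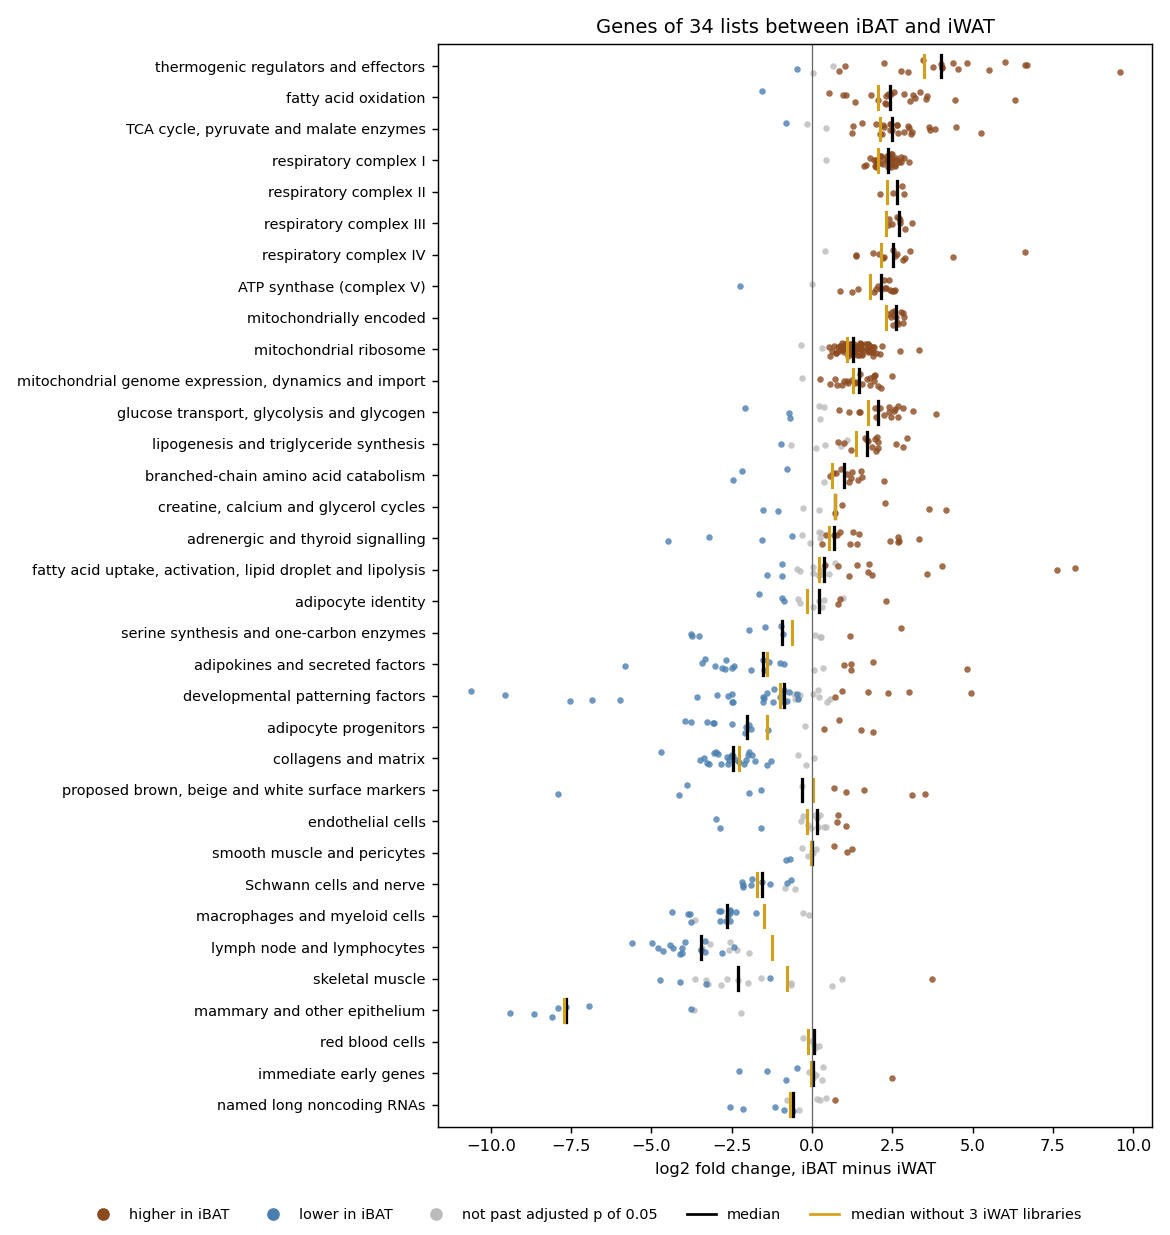
Log2 difference between iBAT and iWAT of the tested genes of 34 lists, each point a gene, brown where higher and blue where lower at an edgeR adjusted p under 0.05, with black bars for the median of all tested list members and yellow bars for the median without the 3 iWAT libraries. Mitochondrial lists lie right of 0 with medians of 1.29 to 2.71, collagens and immune lists lie left of 0, and the lymph node median moves from -3.45 to -1.24 without the 3 libraries.

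Fatty acid oxidation was higher almost throughout. Of 22 genes, 21 were higher, 1 was lower, and the median was 2.42 (2.05 without the 3 iWAT libraries, with 20 higher). Cpt1b, the muscle and brown fat isoform of the transferase that admits fatty acids to mitochondria, had 852 to 1385 CPM (median 1103) in iBAT and 3.85 to 26.5 CPM (median 16.8) in iWAT, a log2 difference of 6.31 ± 0.38 (SE). Cpt1a, the isoform of liver, was the lower member, with 12.3 to 17.97 CPM in iBAT and 26.2 to 64.7 CPM in iWAT (-1.56 ± 0.16). The tissues overlapped for neither isoform. Acaa2, the last enzyme of the β-oxidation spiral, had 2230 to 2569 CPM and 54.8 to 153 CPM (4.45 ± 0.24), Slc25a20, the carnitine carrier, differed by 3.35 ± 0.18, and Etfdh, which passes the electrons on to ubiquinone, by 3.06 ± 0.18.

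Of 26 tested genes of fatty acid uptake, activation, lipid droplets and lipolysis (of 27, Acsl6 being too low to test), 11 were higher, 3 lower and 12 did not pass, with a median of 0.38. Leaving out the 3 iWAT libraries gave 11 higher and 5 lower and a median of 0.20. Fabp3, a fatty acid binding protein of oxidative tissues, had 121 to 569 CPM (median 259.7) in iBAT and 0.179 to 3.19 CPM (median 0.888) in iWAT, a log2 difference of 8.20 ± 0.50 (SE). Slc27a2, a fatty acid transporter and very long-chain acyl-CoA synthetase, had 174 to 213 CPM and 0.0583 to 3.96 CPM (7.62 ± 0.73, and 6.71 without the 3). Fabp4, the main adipocyte form, had 9719 to 11480 CPM in iBAT and 4264 to 11280 CPM in iWAT and did not pass (0.32, adjusted p = 0.434). Its relative Fabp5 did not pass with all libraries (-0.45, adjusted p = 0.104) and was lower without the 3 (-0.93, adjusted p = 0.00110).

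The perilipins, which coat lipid droplets, diverged. Plin3 was higher in iBAT (142 to 241 CPM against 40.1 to 62.6 CPM, 1.86 ± 0.08) and Plin4 lower (496 to 966 CPM against 630 to 4333 CPM, -1.39 ± 0.27), with overlapping ranges for Plin4. Cidec, which fuses droplets in white adipocytes, was lower (-0.92 ± 0.23) and more so without the 3 libraries (-1.23). Lpl, the lipase that frees fatty acids from lipoproteins, did not pass with all libraries (-0.36, adjusted p = 0.322) and was lower without the 3 (-0.74, adjusted p = 0.0190).

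Pyruvate, malate and TCA cycle enzymes were higher in 25 of 28 cases, lower in 1, and had a median of 2.48 (2.13 without the 3 iWAT libraries). The subunits of succinyl-CoA synthetase had the smallest p-values after Me3. Sucla2 had 1552 to 1953 CPM (median 1797) in iBAT and 73.9 to 211 CPM (median 147) in iWAT (3.69 ± 0.20), and Suclg1 986 to 1290 CPM and 56.3 to 135 CPM (3.65 ± 0.18). The malic enzymes moved apart. In contrast to Me3, mitochondrial Me2 was lower in iBAT (7.38 to 10.3 CPM against 8.47 to 28.7 CPM, -0.80, adjusted p = 0.0168), but did not pass without the 3 libraries (-0.34, adjusted p = 0.119), and cytosolic Me1 did not pass (0.44, adjusted p = 0.251). Pcx, pyruvate carboxylase, did not pass either with all libraries (-0.15, adjusted p = 0.684), and was lower without the 3 (-0.50, adjusted p = 0.0346).

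Of the 83 tested nuclear subunits of the respiratory chain and ATP synthase, 79 were higher and 1 lower, and the median was 2.38. All 6 iBAT libraries lay above all iWAT libraries in 80 genes. After leaving out the 3 iWAT libraries 79 were higher and 2 lower, and the median was 2.07. Grouped by gene symbol, the complexes resembled each other. Medians were 2.37 in complex I (37 of 38 higher), 2.66 in complex II (4 of 4) and 2.71 in complex III (9 of 9). They were 2.53 in complex IV (14 of 15 tested of 18) and 2.15 in ATP synthase (15 of 17). By its symbols the complex I list also holds Ndufa4, now assigned to complex IV, and its relative Ndufa4l2. All 13 genes that the mitochondrial genome encodes for proteins were higher, with a median of 2.60. Polyadenylated RNA was sequenced, so the level of mitochondrial transcripts also depends on their short tails.

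Single subunits show the size of these differences. Uqcrc1 of complex III had 1603 to 1936 CPM in iBAT and 129 to 294 CPM in iWAT (3.12 ± 0.18, SE). Cox5a of complex IV differed by 3.05 ± 0.19, Sdhd of complex II by 2.85 ± 0.16, Ndufs8 of complex I by 2.77 ± 0.14 and the mitochondrially encoded mt-Nd3 by 2.47 ± 0.22. In none of them did the tissues overlap. Of the genes of subunit c of ATP synthase, Atp5g1 and Atp5g3 were exceptions. Atp5g1 was lower in iBAT, with 4.39 to 8.24 CPM against 23.5 to 34.9 CPM (-2.25 ± 0.14, edgeR adjusted p = 1.50e-05), and Atp5g3 had 251 to 305 CPM in iBAT and 192 to 368 CPM in iWAT (0.00, adjusted p = 0.994, and -0.36 with adjusted p = 0.0431 without the 3 libraries). Atp5g2, the other gene of the subunit, named after its values were seen, was higher (13.7 to 24.9 CPM against 5.58 to 12.0 CPM, 1.25 ± 0.23, and 0.81 without the 3). Salmon divides reads shared by related genes by a model, so the split between these genes may be uncertain, which was not tested. Ndufa4l2 (0.43, adjusted p = 0.0768) and Cox4i2 (0.39, adjusted p = 0.0715), isoforms linked to low oxygen, did not pass.

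Promoters of these genes were searched on both strands for the cAMP response element, for TCAAGGTCA, the element of Esrra and its relatives, and for ACCGGAAGT, an element of the ETS factor GABP. Among the 68 respiratory genes with a window, 2 held the Esrra element (2.94%, against 0.466% of all windows), namely Sdhd and Atp5g3, 4 held the cAMP element (5.88%, against 2.03%) and 1 the GABP element (1.47%, against 1.21%). Over the 12319 tested genes with a window, which are the nearer background, the shares were 0.333%, 3.21% and 2.24%. Of the 69 mitochondrial ribosome genes with a window, 4 held the GABP element (5.80%), 2 the cAMP element (2.90%) and 0 the Esrra element. None of the 3 motifs stood in the windows of 17 fatty acid oxidation genes. The 250 bases before the start are shown for a subunit that was higher in iBAT and for the subunit c gene that did not pass, Ndufb2 at chr6:39592315-39592564 (plus strand) with the cAMP element in capitals from -14, and Atp5g3 at chr2:73911327-73911576 (minus strand) with the Esrra element, read here as its reverse complement, in capitals from -52.

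Ndufb2: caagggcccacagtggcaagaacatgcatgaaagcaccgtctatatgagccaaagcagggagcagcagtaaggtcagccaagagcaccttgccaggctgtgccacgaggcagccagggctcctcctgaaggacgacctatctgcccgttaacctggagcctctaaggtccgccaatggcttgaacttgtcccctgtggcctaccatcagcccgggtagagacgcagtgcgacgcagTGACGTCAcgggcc
Atp5g3: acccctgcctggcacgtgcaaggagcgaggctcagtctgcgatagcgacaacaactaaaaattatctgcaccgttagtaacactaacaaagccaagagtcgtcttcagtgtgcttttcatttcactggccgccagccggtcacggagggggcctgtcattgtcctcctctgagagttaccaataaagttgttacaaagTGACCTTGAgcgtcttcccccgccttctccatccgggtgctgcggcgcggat

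Ndufb2, an accessory subunit of complex I, had 132 to 171 CPM in iBAT and 24.9 to 43.6 CPM in iWAT (2.13 ± 0.13, SE). A match is a string of letters and not an occupied site, and with Sdhd among the higher genes and Atp5g3 not, the same element stood before genes of both kinds.

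The medians of the genes that build mitochondria lay below the 2.38 of the respiratory chain, a comparison that was not tested. Of 78 mitochondrial ribosome genes, 76 were higher and 0 lower, with a median of 1.29, and of 24 genes of mitochondrial genome expression, dynamics and import, 23 were higher and 0 lower, with a median of 1.45. In the fit without the 3 iWAT libraries the medians were 1.09 and 1.27. Mrps36, which is also described as a subunit of the oxoglutarate dehydrogenase complex, had the highest difference of the ribosomal list (139.5 to 192 CPM against 12.4 to 26.1 CPM, 3.33 ± 0.16). Opa1, which fuses inner membranes, had 214 to 275 CPM in iBAT and 42.2 to 73.4 CPM in iWAT (1.96 ± 0.10), and Trmt2b, a methyltransferase of mitochondrial RNA, 58.7 to 69.0 CPM and 16.5 to 19.8 CPM (1.81 ± 0.07). Ciapin1, of iron-sulfur cluster assembly, differed by 2.50 ± 0.12. Nrf1, a transcription factor of mitochondrial genes, did not pass (-0.31, adjusted p = 0.0750).

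Glycolysis, lipogenesis and triglyceride synthesis were higher in iBAT too. In glucose transport, glycolysis and glycogen, 18 of 24 genes were higher and 3 lower (median 2.05), and in lipogenesis and triglyceride synthesis, 15 of 21 were higher and 1 lower (median 1.72). The medians were 1.74 and 1.37 without the 3 iWAT libraries. Pgk1, which makes ATP in lower glycolysis, had 779 to 1061 CPM in iBAT and 106 to 203 CPM in iWAT (2.67 ± 0.15), and Gpi1 differed by 2.56 ± 0.16 and Pgam1 by 2.46 ± 0.16. The glucose transporters of many cell types were lower instead, Slc2a3 by -2.07 ± 0.28 and Slc2a1 by -0.72 ± 0.12. Pfkfb3 and Hk1, regulators of early glycolysis, did not pass (0.21 and 0.37, adjusted p = 0.471 and 0.128), though Hk1 was higher without the 3 iWAT libraries (0.49, adjusted p = 0.0434).

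Gpd1, which makes glycerol phosphate, had 7274 to 13260 CPM (median 11250) in iBAT and 362 to 2339 CPM (median 1637) in iWAT, a log2 difference of 2.95 ± 0.33 (SE). Acacb, the carboxylase at the mitochondrial surface whose product restrains Cpt1, differed by 2.63 ± 0.29 and Gpat4, of triglyceride synthesis, by 1.66 ± 0.18. The ranges of these 3 genes did not overlap. Mogat1, a monoacylglycerol acyltransferase, was lower (-0.97 ± 0.22). Dgat2, which adds the last acyl chain, and Srebf1, a regulator of lipogenesis, did not pass (0.91 and 0.12, adjusted p = 0.0905 and 0.628). The lipogenesis list summed to 7072 CPM in iWAT wt replicate 3 and to 27720 to 58500 CPM in the other iWAT libraries, against 89860 to 152100 CPM in iBAT.

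In the cycles that spend ATP or glycerol phosphate, 5 of 9 tested genes (of 11, Ckmt1 and Ckmt2 being too low) were higher and 2 lower, with a median of 0.70. Gk, glycerol kinase, which lets adipocytes reuse glycerol, had 72.1 to 335 CPM (median 175) in iBAT and 6.15 to 15.6 CPM (median 8.98) in iWAT (4.17 ± 0.32), Gpd2 of the glycerol phosphate shuttle 865 to 1461 CPM and 39.6 to 145 CPM (3.64 ± 0.24), and Alpl, a phosphatase linked to phosphocreatine turnover, differed by 2.26 ± 0.16. Creatine synthesis went the other way, with Gatm at -1.53 ± 0.30 and Gamt at -1.05 ± 0.28. Creatine kinase Ckb, with 26.5 to 41.9 CPM in iBAT and 28.4 to 44.7 CPM in iWAT, did not pass (-0.27, adjusted p = 0.117), nor did the calcium channel Ryr2 (0.20, adjusted p = 0.693).

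In branched-chain amino acid catabolism 12 of 16 genes were higher and 3 lower (median 0.99), and 11 and 3 without the 3 iWAT libraries (median 0.64). In serine synthesis and one-carbon metabolism 2 of 12 were higher and 7 lower (median -0.93), but 3 and 4 without these libraries (median -0.63). Bckdha, a subunit of the committing dehydrogenase, had 724 to 934 CPM in iBAT and 98.4 to 255 CPM in iWAT (2.26 ± 0.19), and its kinase Bckdk (1.25 ± 0.11) and Acad8 (1.53 ± 0.12) of the valine branch were also higher. The aminotransferases of the opening step were lower, Bcat1 by -2.47 ± 0.26 and Bcat2 by -0.79 ± 0.17. Phgdh, the opening enzyme of serine synthesis, had 7.79 to 18.8 CPM in iBAT and 82.8 to 192 CPM in iWAT (-3.73 ± 0.32), like Psat1 of the next step, whereas Psph of the last step was higher (33.9 to 41.7 CPM against 11.4 to 20.5 CPM, 1.19 ± 0.11).

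Of the enzymes that use serine and glycine, cytosolic Shmt1 was higher (29.4 to 48.9 CPM against 4.13 to 8.14 CPM, 2.76 ± 0.23) and Gldc of glycine cleavage lower (-3.53 ± 0.39). Mthfd1l, Mthfd2 and Aldh1l2, mitochondrial one-carbon enzymes, were lower with all libraries (-1.96, -0.90 and -1.48) and did not pass without the 3 iWAT libraries (-0.89, -0.37 and -0.99, adjusted p = 0.136, 0.204 and 0.121). Mitochondrial Shmt2 did not pass (0.28, adjusted p = 0.239) and was higher without the 3 (0.60, adjusted p = 0.00630).

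General adipocyte genes were near the background. Of 13 genes of adipocyte identity, 3 were higher, 3 lower and 7 did not pass, and the median of 0.22 became -0.17 without the 3 iWAT libraries, with 5 lower. Cebpb, an early adipogenic factor, had 81.3 to 283 CPM in iBAT and 15.8 to 46.2 CPM in iWAT (2.30 ± 0.16), whereas its relative Cebpd was lower (6.51 to 9.20 CPM against 13.1 to 43.8 CPM, -1.65 ± 0.18). Pparg, the master regulator of adipocytes, had a log2 difference of 0.86 with all libraries and 0.43 without the 3. Adiponectin (Adipoq) had -0.89 with all libraries and -1.19 without the 3, and all 4 of these values passed. Acvr1c, an activin receptor of adipocytes, did not pass with all libraries (-0.42, adjusted p = 0.0735) and did without the 3 (-0.77, adjusted p = 0.000774).

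Secreted factors were mostly lower in iBAT. Of 22 tested adipokines and secreted proteins (of 23, with Fgf21 too low), 15 were lower and 5 higher, with a median of -1.52 (-1.41 without the 3 iWAT libraries). Nnat, a small membrane protein of endocrine and fat cells, had 3.95 to 9.75 CPM (median 6.47) in iBAT and 166 to 941 CPM (median 339) in iWAT, a log2 difference of -5.82 ± 0.40 (SE). Igf1, the growth factor, had 10.8 to 51.0 CPM and 144 to 179.8 CPM (-2.79 ± 0.33), and Ccl2, a monocyte attractant, 0.0702 to 0.406 CPM and 1.09 to 6.05 CPM (-3.32 ± 0.33, and -2.70 without the 3). Nampt, of NAD synthesis (1.91 ± 0.14), Vegfa, the vessel growth factor (1.23 ± 0.21, and 0.75 without the 3), and Bmp8b, a signal of brown fat (4.82 ± 0.51), were higher, and none of these ranges overlapped. Angptl4, an inhibitor of lipoprotein lipase, did not pass (0.35, adjusted p = 0.373).

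Developmental patterning factors were mostly lower in iBAT. Of 40 tested factors (of 44, with Hoxc11, Pax3, Myf5 and Tcf21 too low), 25 were lower and 6 higher in iBAT, with a median of -0.87, and without the 3 iWAT libraries the counts were again 25 and 6. Hox genes are numbered by their place in 4 clusters, where low numbers mark anterior and high numbers posterior body levels. All 5 tested genes of groups 9 to 10 were lower in iBAT, with no overlap between the tissues and a fitted median of -7.54. Of groups 6 to 8, 7 of 8 were lower (median -1.11). Of groups 4 to 5, 4 of 7 were higher and 2 lower (median 0.71), and of groups 2 to 3, 2 of 5 were lower (median 0.03). Without the 3 iWAT libraries the numbers of higher and lower genes in the same order of groups were 0 and 5, 0 and 8, 4 and 2, and 0 and 1.

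Hoxc10 was at 0 to 0.0675 CPM in iBAT and 12.4 to 32.3 CPM in iWAT, which made it at least 134-fold lower against 3 counts per iBAT library, and Hoxa10 (6.83 to 14.9 CPM in iWAT) was at least 62.1-fold lower. Hoxc9 had 0 to 0.232 CPM in iBAT and 10.7 to 24.8 CPM in iWAT. At the anterior end Hoxa4 had 8.71 to 14.1 CPM in iBAT and 0.567 to 2.32 CPM in iWAT (3.03 ± 0.26, SE), and Hoxa5 25.9 to 50.9 CPM and 5.32 to 12.8 CPM (2.35 ± 0.22). Within groups 4 and 5 the clusters differed in sign, as the genes of the Hoxa and Hoxc clusters that passed were higher and those of the Hoxb and Hoxd clusters lower.

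**Figure D4:**
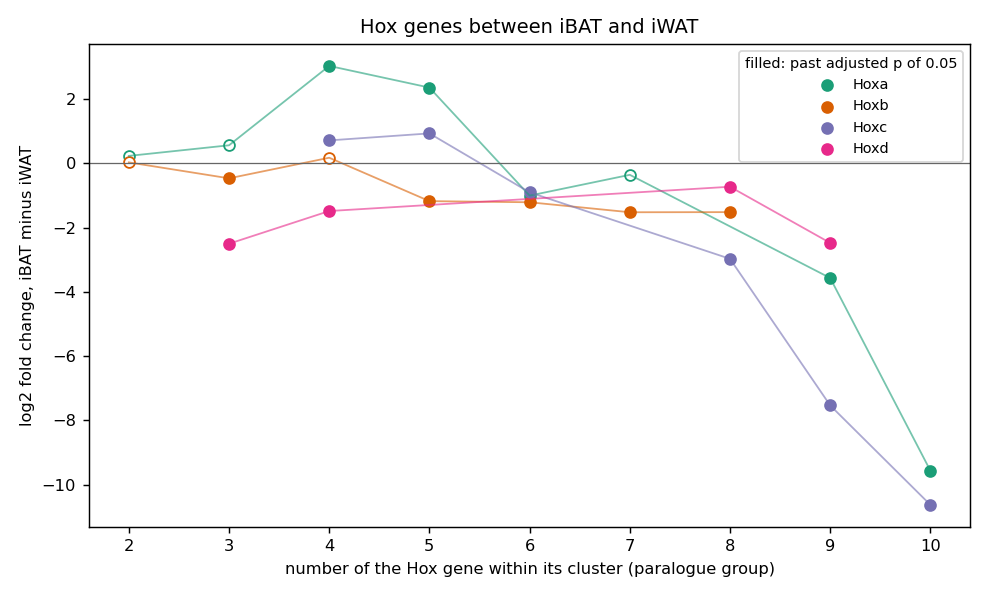
Log2 difference (iBAT minus iWAT) of the 25 tested Hox genes against their number within the cluster (paralogue group), coloured by cluster, with filled points for an edgeR adjusted p under 0.05 and lines joining genes of a cluster. Differences run from 3.03 at Hoxa4 to fitted values of -9.57 at Hoxa10 and -10.63 at Hoxc10, which rest on near-0 iBAT counts, and the 5 genes of groups 9 to 10 all lie below 0.

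Outside the Hox clusters, Zic1, a factor of the dorsal body axis, had 2.25 to 10.8 CPM in iBAT and 0.117 to 0.416 CPM in iWAT (4.95 ± 0.51, and 5.86 without the 3 iWAT libraries). Tbx15, a T-box factor, was lower (2.89 to 4.64 CPM against 13.7 to 25.4 CPM, -2.46 ± 0.23), as were Shox2 (0.555 to 6.11 CPM against 8.20 to 28.1 CPM, -2.60 ± 0.46) and En1 (-1.40 ± 0.28). Tbx1, with 0 to 0.135 CPM in iBAT and 1.20 to 9.56 CPM in iWAT, was at least 28.0-fold lower, and Emx2 at least 23.4-fold lower. Lhx8, proposed as a marker of classical brown fat, had 0.842 to 5.17 CPM in iBAT and 3.04 to 6.36 CPM in iWAT and did not pass (-0.57, adjusted p = 0.205).

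Collagens and matrix genes were lower in iBAT. Of 28 genes, 25 were lower and 0 higher, the median was -2.47, and all 6 iBAT libraries lay below all iWAT libraries in 23. Without the 3 iWAT libraries 26 were lower and the median was -2.26. The list summed to 3334 to 4050 CPM in iBAT and 9506 to 21010 CPM in iWAT. All 12 collagen genes of types other than IV were lower (median -2.56), as Col18a1 was by -2.54 ± 0.15 (20.7 to 30.5 CPM against 97.6 to 225 CPM). The type IV collagens of basement membranes, Col4a1 and Col4a2, did not pass with all libraries (-0.43 and -0.20, adjusted p = 0.101 and 0.414), and Col4a1 did without the 3 (-0.51, adjusted p = 0.0380). Mmp3, a matrix protease, had 1.05 to 2.65 CPM in iBAT and 35.0 to 76.7 CPM in iWAT (-4.69 ± 0.29, and -4.00 without the 3), and Lum, a small proteoglycan, differed by -2.48 ± 0.12.

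Among 16 genes of adipocyte progenitors, 11 were lower and 4 higher (median -2.01, and -1.41 without the 3 iWAT libraries). Cd55 (-3.10 ± 0.21), Sema3c (-3.26 ± 0.24) and Cd9 (-1.91 ± 0.12), surface and secreted proteins of fibroblast-like progenitors, were lower with no overlap. F3, coagulation factor III (1.53 ± 0.16), Dlk1, an inhibitor of adipogenesis (1.90 ± 0.32), and Ebf2, a factor of brown preadipocytes (0.85 ± 0.21), were higher with no overlap. Pdgfrb, shared by progenitors and pericytes, did not pass (-0.22, adjusted p = 0.139).

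Of 11 tested genes proposed as surface markers of brown, beige or white adipocytes (12 in the table, with Ano4 too low), 5 were higher and 5 lower (median -0.31), against 5 and 3 without the 3 iWAT libraries (median 0.02). P2rx5 (80.4 to 135 CPM against 4.74 to 26.3 CPM, 3.12 ± 0.25) and Slc36a2 (683 to 758 CPM against 113 to 367 CPM, 1.63 ± 0.22), proposed for brown adipocytes, were higher, as was the receptor Ntrk3 (3.54 ± 0.33, and 2.89 without the 3 iWAT libraries). Slc7a10, proposed for white adipocytes, had 8.49 to 21.0 CPM in iBAT and 113 to 251 CPM in iWAT (-3.90 ± 0.33). Tmem26, proposed for beige adipocytes, had 0 to 0.0581 CPM in iBAT and 1.21 to 9.36 CPM in iWAT. Its mean was at least 21.6-fold lower in iBAT, and the fitted log2 difference of -7.91 became -6.26 without the 3 iWAT libraries. Tnfrsf9 and Cd40, immune receptors also proposed for beige cells, passed as lower with all libraries and not without the 3 iWAT libraries (adjusted p = 0.146 and 0.254).

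Vessel genes showed no common direction. Of 17 endothelial genes 3 were higher and 3 lower (median 0.16), and 4 and 5 without the 3 iWAT libraries (median -0.17). Of 10 genes of smooth muscle and pericytes 3 were higher and 2 lower (median 0.01). The receptors of Vegfa, Flt1 (152 to 233 CPM against 51.3 to 129 CPM, 1.05 ± 0.13) and Kdr (234 to 308 CPM against 108.5 to 184 CPM, 0.80 ± 0.12), were higher, and Vwf, of larger vessels, was lower (-1.58 ± 0.21). Lyve1, of lymphatic vessels and some macrophages, was lower (-3.00 ± 0.66, and -1.48 without the 3 iWAT libraries), and the lymphatic factor Prox1 passed with all libraries (-2.87) and not without the 3 (-1.52, adjusted p = 0.143). Pecam1, present in all endothelium, had 149 to 179 CPM in iBAT and 169 to 192 CPM in iWAT (-0.14, adjusted p = 0.184). The pericyte gene Rgs5 was higher (1.09 ± 0.20), and Tagln of smooth muscle lower (-0.82 ± 0.13).

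Immune genes were lower in iBAT, and their list medians lay nearer to 0 when the 3 iWAT libraries were left out. Of 18 macrophage and myeloid genes, 15 were lower and 0 higher, with a median of -2.65, and without the 3 iWAT libraries 14 were lower with a median of -1.49. Their sums were 115 to 245 CPM in iBAT, 2166 and 2127 CPM in iWAT wt replicate 3 and ko replicate 2, and 427 to 987 CPM in the other iWAT libraries. Clec10a, a lectin of tissue macrophages, had 1.68 to 4.59 CPM in iBAT and 32.1 to 115 CPM in iWAT (-4.35 ± 0.33, and -3.64 without the 3), and C1qa of complement differed by -2.62 ± 0.39 (-1.68 without the 3). The neutrophil gene S100a8 passed with all libraries (-3.81) and not without the 3 (-1.08, adjusted p = 0.283).

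Of the 22 tested lymph node and lymphocyte genes (of 24, with Cxcr5 and Glycam1 too low), 16 were lower with all libraries and 10 without the 3, and the median moved from -3.45 to -1.24. Ighm, the heavy chain of IgM, passed in both (5.06 to 14.0 CPM in iBAT, 55.4 to 586 CPM in iWAT, -4.05 ± 0.50, and -2.95 without the 3). Ccl19, a chemokine of lymph node stroma, passed in both as well (-5.61 and -3.05). The B cell genes Cd79b, Cr2 and Fcer2a and the T cell gene Cd3d passed with all libraries and not without the 3 (adjusted p = 0.120 to 0.438). Madcam1, an address of lymphocytes on vessels, had 0 to 0.174 CPM in iBAT and 0.104 to 1.46 CPM in iWAT. Its mean was at least 3.17-fold lower in iBAT, and the gene did not pass without the 3 (adjusted p = 0.0669). Cd79a and Ccl21a did not pass (-2.58 and -2.55, adjusted p = 0.152 and 0.135), with iWAT values of up to 208 and 229 CPM in the lymph node libraries and below 4 CPM in the median library (-0.35 and 0.81 without the 3).

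**Figure D5:**
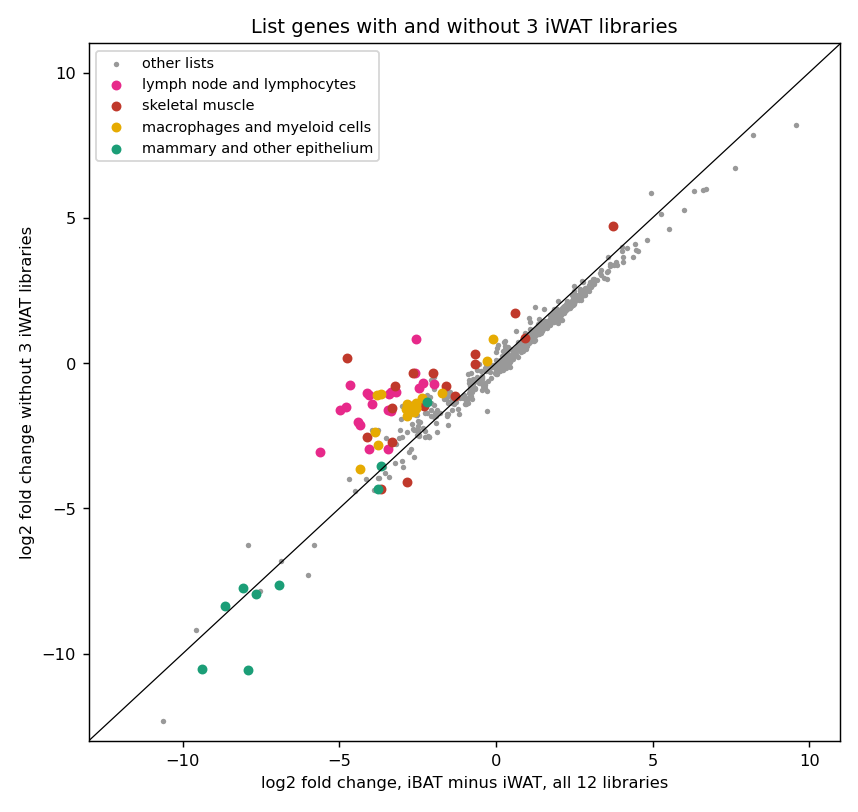
Log2 difference (iBAT minus iWAT) of each tested list gene with all 12 libraries (horizontal axis) and without the 3 iWAT libraries (vertical axis), with the diagonal as the line of equal values and 4 lists of other cell types coloured. Most genes lie near the diagonal, and most lymph node and macrophage genes lie above it on the left, where the median of the lymph node list is -3.45 with all libraries and -1.24 without the 3.

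Skeletal muscle genes were read in the same way. Of 17 tested genes (of 20, with Myh7, Pvalb and Tcap too low), 1 was higher and 4 lower with all libraries, and 3 were higher and 3 lower without the 3. Mb, myoglobin, which is also found in brown adipocytes, had 1.21 to 5.13 CPM in iBAT and 0 to 1.66 CPM in iWAT (3.74 ± 0.68, and 4.71 without the 3). Mybpc2, of fast muscle fibres, was lower with all libraries (-4.74, adjusted p = 0.0261), with 159 CPM in iWAT ko replicate 1, and had 0.18 (adjusted p = 0.888) without the 3. Myh4, the fastest myosin, reached 1538 CPM in that library and at most 5.92 CPM in iBAT and did not pass (-2.85, adjusted p = 0.603, and -4.10 with adjusted p = 0.0670 without the 3). It passed as lower when the mouse wt 3 alone was left out (-9.35, adjusted p = 2.57e-05). Acta1, the actin of skeletal muscle, passed as lower without the 3 (-4.32, adjusted p = 0.000423) and not with all libraries (-3.66, adjusted p = 0.132). Myl1, a myosin light chain, had 56.6 to 72.8 CPM in iBAT and passed as higher only without the 3 (0.85, adjusted p = 0.00137, against 0.93 with adjusted p = 0.133).

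Epithelial genes stood in 3 iWAT libraries, wt replicate 3, ko replicate 2 and ko replicate 3, in which all 9 tested genes (of 12, with Krt15, Csn2 and Wap too low) lay above the other iWAT libraries. The list summed to 80.4, 120 and 199 CPM there, to 3.19 to 4.17 CPM in the other iWAT libraries and to 0.607 to 1.45 CPM in iBAT. Of the 9 genes 7 were lower in iBAT, also without the 3 libraries, a fit in which ko replicate 3 remained. Krt8, a keratin of simple epithelia, had 0 to 0.0675 CPM in iBAT and 14.6, 22.2 and 27.2 CPM in these iWAT libraries, but at most 0.0619 CPM in the others. DESeq2 did not call it (adjusted p = 0.0928). The mean of Krt8 was at least 58.1-fold lower in iBAT, and that of Epcam, an adhesion molecule of epithelia, at least 48.7-fold. With near-0 genes at their bounds the median of the list was -3.77, against a fitted -7.67. Csn3, a milk casein, did not pass (-3.66, adjusted p = 0.137).

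Genes of Schwann cells and nerve were lower in 9 of 11 tested cases (of 13, with Th and Dbh too low) and higher in 0, with a median of -1.56. With the 3 iWAT libraries left out 7 were lower (median -1.71), as Mbp and Pmp2, proteins of myelin, no longer passed (adjusted p = 0.0629 and 0.165). Scn7a, a sodium channel of glia, had 15.4 to 26.9 CPM in iBAT and 55.5 to 131 CPM in iWAT (-2.15 ± 0.24), and Sox10, the factor of Schwann cells, differed by -1.32 ± 0.29. The 5 tested red blood cell genes did not pass, with a median of 0.07 (for Hba-a2, adjusted p = 0.724), so that blood genes were not detectably unequal between the tissues. Of 12 immediate early genes, which answer to stimulation within minutes, 4 were lower and 1 higher (4 and 2 without the 3). Egr2 was lower (0.444 to 1.69 CPM against 3.56 to 7.16 CPM, -2.27 ± 0.23), and Nr4a1 was higher (14.1 to 349 CPM against 4.27 to 16.5 CPM, 2.48 ± 0.47) with the highest value in iBAT ko replicate 2.

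Long noncoding RNAs were examined last among the lists. Of 11 tested transcripts (of 12, with Gm13133 too low), 5 were lower and 1 higher. Malat1, of nuclear speckles, was higher (1690 to 2068 CPM against 916 to 1562 CPM, 0.70 ± 0.16), and the imprinted Meg3 (-0.86 ± 0.09) and H19 (-2.55 ± 0.40, and -1.80 without the 3 iWAT libraries) and the host transcript Snhg11 (-2.14 ± 0.47) were lower. Rian and Mirg, which share the locus of Meg3, were lower with all libraries (-0.60 and -1.15) and did not pass without the 3 (adjusted p = 0.175 and 0.0523). Neat1, of paraspeckles, did not pass with all libraries (-0.41, adjusted p = 0.204) and was lower without the 3 (-0.74, adjusted p = 0.0199).

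Some genes were all but absent from a tissue. With 3 counts or fewer in every library of the other tissue and at least 10 in each of its own, 5 genes were found in iBAT and 60 in iWAT. Of the 5 found in iBAT, 4 are annotated as noncoding RNAs. Lncbate10, a long noncoding RNA of brown fat, had 12.7 to 69.6 CPM (median 35.9) in iBAT and 0 to 0.0619 CPM in iWAT, which made it at least 382-fold higher. The other noncoding ones were Gm15241 (at least 58.3-fold), Gm46637 (at least 42.6-fold) and Gm48287 (at least 21.9-fold), and Gm10570 is a predicted protein-coding gene (at least 25.4-fold). In the direction of iWAT, the mean of Fam110c was at least 36.4-fold lower in iBAT. That of Prf1, the perforin of cytotoxic lymphocytes, was at least 20.3-fold lower. These means and the count of 60 include the lymph node and muscle libraries.

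Among genes with a mean of at least 10 CPM, those with the largest differences in favour of iBAT were, beside the ones above, Kng2, a kininogen (55.4 to 108 CPM against 0.0330 to 0.496 CPM, 8.41 ± 0.35), Acot11, a thioesterase of brown fat (449 to 1327 CPM against 4.55 to 19.9 CPM, 6.27 ± 0.48), and Cpn2, a carboxypeptidase subunit (23.0 to 63.0 CPM against 0.0298 to 1.19 CPM, 6.11 ± 0.38). In favour of iWAT, Cyp2f2, a cytochrome P450, had 0.988 to 5.34 CPM in iBAT and 107 to 194.5 CPM in iWAT (-5.93 ± 0.40). Others of the lower genes rested on a few iWAT libraries. Ltf, lactoferrin, had 42.9, 22.9 and 60.0 CPM in iWAT wt replicate 3, ko replicate 2 and ko replicate 3, the libraries with epithelial genes, and at most 0.0292 CPM in the others, and its mean was at least 114-fold lower in iBAT, though DESeq2 did not call it (adjusted p = 0.146). Marco, a scavenger receptor of macrophages, had 119 and 33.2 CPM in the lymph node libraries and at most 0.619 CPM in the other iWAT libraries. Its mean, which the lymph node libraries carry, was at least 139-fold lower in iBAT. Marco passed without the 3 as well (-3.84, adjusted p = 0.0272). Ighg1, an immunoglobulin heavy chain, had 415 and 8.05 CPM in the lymph node libraries and at most 0.465 CPM in the others. Its mean, carried by the same libraries, was at least 385-fold lower in iBAT, which does not hold for each iWAT library. Ighg1 did not pass without the 3 (adjusted p = 0.216), nor with DESeq2 on all libraries (adjusted p = 0.222).

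Major urinary proteins (Mup), carriers of lipophilic molecules known from liver, stood out among the lower genes. All 15 tested Mup genes were lower in iBAT, 12 of them without overlap. Their sequences are nearly identical, so single members are uncertain and the sum is the safer value. The summed level was 647, 10430 and 5400 CPM in iWAT wt replicates 1 to 3 and 770, 4084 and 4304 CPM in ko replicates 1 to 3. In iBAT it was 9.83, 70.2 and 125 CPM in wt replicates 1 to 3 and 4.84, 56.5 and 76.7 CPM in ko replicates 1 to 3. The replicate 1 mice of both genotypes had the lowest sums in both tissues, a pattern that was noticed after the values were seen. Mup22 alone had 3.51 to 93.6 CPM in iBAT and 504 to 8028 CPM in iWAT (-6.30 ± 0.35).

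The tissue difference was finally compared between genotypes. For 0 of 17794 genes (0%) did the difference between iBAT and iWAT depend on genotype at an edgeR adjusted p under 0.05, with 231 genes at an unadjusted p under 0.05. DESeq2 called 1 gene, the fast muscle troponin Tnni2, named after its value was seen. With limma voom 0 genes passed (260 at an unadjusted p under 0.05). Both 231 and 260 lie below a share of 0.05 of the genes tested, the share that chance alone would give. The tests were thus cautious, and a count of 0 does not show that genotype has no effect. Without the 3 iWAT libraries 16 genes passed, a fit with ko replicate 3 as the only knockout iWAT library.

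In the wild type mice, the tissue difference of Gm15551 was -0.71 with an edgeR adjusted p of 0.284, and the iWAT range of 1.76 to 9.21 CPM enclosed the iBAT range of 2.32 to 3.78 CPM. Over all 12 libraries the difference was -0.78 (adjusted p = 0.148), and without the 3 iWAT libraries, where wild type mice 1 and 2 supply nearly all counts, it was -1.23 (adjusted p = 0.0143). Gm15551 lies at 126667329 to 126669044 on the minus strand of chromosome 3 (GRCm38), antisense within Camk2d (plus strand, 126596302 to 126846326), a calcium/calmodulin kinase. Camk2d was lower in iBAT (31.9 to 53.0 CPM against 56.8 to 65.9 CPM, -0.72 ± 0.10, adjusted p = 0.000583), without overlap and by a similar value without the 3 iWAT libraries (-0.74). Whether reads were counted by strand is not stated, so reads of the antisense pair may be mixed.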

How the data were processed

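PolyA RNA of frozen iBAT and iWAT pieces was sequenced as paired ends. After quality filtering in cutadapt, the authors used Salmon with GENCODE M22 transcripts (GRCm38) for quantification and deposited estimated counts per gene as whole numbers, with no normalization. Either these transcripts alone or their union with RNAcentral is described as the reference. Not given in the sources used here are which of them the table rests on, how strand was set and how transcripts were summed to genes. Salmon shares reads between similar transcripts by a model, so near-identical genes are uncertain. The deposited table held 54347 rows, of which 31886 carried a symbol and 22260 were named from the reference annotation. Libraries held 18385784 to 27410053 counts, so that 3 counts corresponded to 0.0874 to 0.211 CPM.

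Counts were filtered by expression (edgeR filterByExpr) and scaled by TMM, and a quasi-likelihood model with mouse and tissue terms was fitted to all 12 libraries in R 4.3.3 with edgeR 4.0.16. The F-test of tissue received Benjamini-Hochberg adjustment over the 17794 genes tested, with a threshold of 0.05. SE is the absolute log2 difference divided by the square root of F. The genotype dependence was the tissue by genotype term. Every adjusted p is from edgeR unless DESeq2 1.42.0 or limma 3.58.1 is named. The edgeR fit was also run on simulated counts with known changes in a small set of genes, up and down alike. That run does not test the scaling for data in which as many genes differ as here. Promoter letters were searched in RefSeq windows, matched by symbol for 12319 of the tested genes. Figures and summaries used Python 3.11.15, pandas 2.3.3, numpy 2.4.6 and matplotlib 3.10.9.

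Mouse identifiers, which tie both tissues to an animal, give the pairing. Deviations of the tissues of a mouse from their group means correlated at -0.0676 to 0.255. Among the 3 iWAT libraries of the same genotype, the own mouse matched best for 3 of 6 iBAT libraries. Some such matches arise by chance, so the pairing rests on the identifiers and not on these values. The p-values set the difference between the tissues against its spread over these mice. Members, gene lists and tests were chosen with earlier results of these data known. Named are 6 given markers, up to 3 genes per list and direction by p-value, up to 2 per list that did not pass, the 10 largest differences in each direction at a mean of 10 CPM, genes near 0 in a tissue, Gm15551, Camk2d and list genes whose call changed without the 3 iWAT libraries, some of which are given in counts only. Members below the filter were not tested, and a few named genes are not reported here. A fold of at least N sets the mean CPM of a tissue against the mean CPM of 3 counts per library in the other. Epididymal libraries were used only in an alternative fit.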

Additional observations from a re-analysis of the deposited data

Results flagged for a closer look

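In 84 comparisons of a library with the others of its tissue, 7 stood apart by Dixon's criterion, in which the gap to the next library is set against the range of the 6. About 1 in 20 such groups, here 4.2, would exceed it by chance if values were normally distributed. CPM values are often skewed and some of the comparisons share genes, so 4.2 is only a rough guide.

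The iWAT library of ko replicate 1 held 5042 CPM of skeletal muscle genes in sum, the next library being at 58.2 CPM, and 915 CPM of red blood cell genes, with 574 CPM in the next. Ucp1 had 49.6 CPM in iWAT wt replicate 2 and 16.7 CPM in the next. Me3 had 2.60 CPM in iWAT ko replicate 3, where the next held 1.81 CPM. In iBAT, the serine and one-carbon list summed to 293 CPM in ko replicate 1 (next 274 CPM), immediate early genes to 832 CPM in ko replicate 2 (next 412 CPM), and Psat1 had 8.01 CPM in wt replicate 3 (next 5.11 CPM). The cause of these gaps was not tested.

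Ehmt1 had a tissue difference that took opposite signs in the genotypes, higher in iBAT in all 3 wild type mice and lower in all 3 knockout mice, and the differences were 0.10 and -0.04 (log2). Knockout minus wild type was -0.146, and the edgeR test of this difference did not pass (unadjusted p = 0.333, adjusted p = 1).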

How the results depend on the processing

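Among 22 alternatives, the numbers of higher and lower genes stayed within 1.5 times of 4676 and 5465 except in the following. A test against a log2 difference of 1 gave 1263 and 2046 genes, the wild type mice alone 2162 and 1724, and the knockout mice alone 3472 lower genes. The genotype dependence gave 1 gene with DESeq2 and 16 without the 3 iWAT libraries. Without the mouse as a replicate block, in which the pairing is ignored, 4492 were higher and 5568 lower, and the genotype dependence stayed at 0. Leaving out each mouse in turn gave 4207 to 4570 higher and 4685 to 5224 lower genes. The fits without a block and without the 3 libraries (4149 and 4523) and on the 3 remaining mice alone (4109 and 4304) were added after seeing the data.

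Of 159 named genes past the threshold, 158 kept their direction in every alternative that could test them. The exception was Mybpc2, with 0.18, 0.92 and 0.16 in the fits without all 3 libraries (with the block, without it and on 3 mice). DESeq2 did not call Fcer2a, Mybpc2, Krt8, Ltf and Ighg1 (adjusted p = 0.0626, 0.0891, 0.0928, 0.146 and 0.222). Genes that did not pass changed sign as follows. Without the lymph node libraries the log2 differences were -0.12 for Fabp4, -0.02 for Pde3b, -0.11 for Pfkfb3, -0.16 for Srebf1, -0.29 for Atp5g3, -0.08 for Angptl4, -0.19 for Hba-a2 and 0.08 for Ccl21a. Without all 3 libraries, with the block, without it and on 3 mice, they were -0.17, -0.09 and -0.17 for Fabp4, -0.06, -0.04 and -0.07 for Pde3b, -0.11, -0.09 and -0.12 for Pfkfb3, -0.06, -0.10 and -0.07 for Srebf1, -0.36, -0.29 and -0.37 for Atp5g3 and 0.81, 1.13 and 0.85 for Ccl21a. With the block and on 3 mice they were -0.13 and -0.15 for Me1 and -0.09 and -0.10 for Hba-a2. Myh4 (-2.85 with all libraries and -4.10 without the 3) had 1.06 without the muscle library, 2.52 in wild type mice and 3.87 without all 3 and the block, and Ryr2 had -0.03 without the muscle library and -0.05 in knockout mice. Atp5g3 had -0.04 without the block, -0.03 with all 18 libraries or no filter, -0.10 with at least 10 counts everywhere, -0.07 in wild type mice and -0.13 to 0.12 without each mouse in turn. In knockout mice Ehmt1 had -0.03 and Srebf1 -0.05, in wild type mice Pcx had 0.11, Col4a2 0.03 and Lhx8 0.00, and with at least 10 counts everywhere Ehmt1 had -0.07 (-0.00 with no filter) and Hba-a2 -0.02. Without each mouse in turn Pfkfb3 ranged from -0.01 to 0.35, Srebf1 from -0.06 to 0.23, Ryr2 from -0.03 to 0.54, Hba-a2 from -0.06 to 0.19 and Myh4 from -9.35 to 1.03. The cause of these changes was not tested.

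The limits lie in 6 mice, 3 iWAT libraries with high lymph node or muscle genes, a further one (ko replicate 3) with epithelial genes, whole pieces of tissue and counts of polyadenylated RNA, and low genes rest on the floor of 3 counts.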
